A study of Mus musculus with 6 samples.

Results

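*Mid1* and *Mid2*, the paralogous ubiquitin ligase genes of the midline family on the mouse X chromosome, were followed through 6 RNA-seq libraries of mouse ESCs. They are 2 of the 19489 genes in the deposited table and were taken by gene symbol. *Mid1* was selected on its measured values, because it was lower in *Dppa3* OE ESCs than in Con ESCs in every pair of libraries, and *Mid2* was added as its paralog. The OE to Con differences of both genes are therefore given as a description, with no test.

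*Mid1* and *Mid2* encode E3 ubiquitin ligases of the tripartite motif (TRIM) family, with a RING finger, B-boxes, a coiled coil, a COS box that directs the protein to microtubules, and a carboxy-terminal SPRY domain. MID1 binds the regulatory protein α4, encoded by *Igbp1*, and promotes ubiquitination and turnover of the catalytic subunit of protein phosphatase 2A (PP2A), through which it bears on mTOR and Hedgehog signalling. In humans, loss-of-function variants of *MID1* cause the X-linked form of Opitz syndrome, a disorder of midline development. In laboratory mice *Mid1* lies across the boundary of the pseudoautosomal region, so that its 3′ part has a counterpart on the Y chromosome.

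The 6 libraries came from *Dppa3* OE ESCs (OE-1, OE-2 and OE-D7) and from Con ESCs (Con-1, Con-2 and Con-D7), with 3 libraries per genotype. OE ESCs carried the *Dppa3* coding sequence behind a CAG promoter and Con ESCs the empty vector, and both were selected with puromycin and grown with serum and LIF. The study made stable lines from picked colonies and also transient transfectants, and does not say which were sequenced. The ESC line used for RNA-seq and the meaning of D7 are not given in the sources used here. The study states in general terms that its results come from independent experiments, without saying which libraries were separate cultures, so the p-values cover the spread among these libraries, part of which may be technical. The records give each library a different strain label, from 129S2/SvPas to 129S7/SvPas in sample order, and these labels were not used. The sample titles number the D7 libraries as replicate 3 of their genotype. Here the D7 libraries were treated as a pair of their own beside pairs 1 and 2. *Dppa3* was at 278.79, 278.82 and 130.96 FPKM in OE-1, OE-2 and OE-D7, against 6.09, 3.89 and 26.22 FPKM in Con-1, Con-2 and Con-D7. The genotype labels thus held in each pair, with the smallest ratio in the D7 pair. FPKM is the level corrected for transcript length and library depth that the authors deposited beside estimated counts. Totals ran from 17408954 to 18176939 estimated counts per library. The counts of the D7 libraries were deposited under the heading average read count, and those of the other libraries under read count. The difference is not explained in the sources used here, and all were used as counts. The pluripotency gene *Pou5f1* was at 311.64 to 648.37 FPKM in OE libraries and at 383.78 to 682.98 FPKM in Con libraries, so this ESC marker was expressed in all 6. In the D7 libraries, summed trophectoderm markers were higher and summed ESC markers lower than in libraries 1 and 2, as given beside the D7 results.

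*Mid1* (gene ID 17318) occupies chrX:169685199-169990798 and *Mid2* (gene ID 23947) chrX:140664304-140767715 in GRCm38.p6. *Mid1* has several annotated transcription starts, of which 3 had a window in the RefSeq table used here, and the deposited table holds 1 row per gene, so the start in use cannot be read from these values. The windows below run from 250 bases before to 50 bases after a start and are shown because they differ in CG dinucleotides, the sites of DNA methylation, which the study examined with other assays. Of these 3, the *Mid1* window with most CG (chrX:169879369-169879668, plus strand) and the *Mid2* window (chrX:140664706-140665005, plus strand) follow, from RefSeq on GRCm38.p6, with each CG in capitals. CG reads the same on both strands, so 1 count covers both.
Mid1: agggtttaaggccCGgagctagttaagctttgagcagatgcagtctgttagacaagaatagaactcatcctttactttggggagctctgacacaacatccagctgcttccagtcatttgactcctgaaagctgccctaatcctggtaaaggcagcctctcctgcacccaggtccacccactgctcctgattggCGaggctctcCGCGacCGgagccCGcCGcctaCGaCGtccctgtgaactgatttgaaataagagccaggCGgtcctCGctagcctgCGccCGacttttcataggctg
Mid2: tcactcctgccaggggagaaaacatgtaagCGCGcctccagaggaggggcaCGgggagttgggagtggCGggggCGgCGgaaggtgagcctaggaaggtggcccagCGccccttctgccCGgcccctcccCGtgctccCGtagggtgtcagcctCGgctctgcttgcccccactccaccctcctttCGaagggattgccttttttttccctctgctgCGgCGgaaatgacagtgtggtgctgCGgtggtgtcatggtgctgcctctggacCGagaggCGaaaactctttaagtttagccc
The *Mid1* window held 13 CG and the *Mid2* window 17, against a median of 7 over 32851 windows of 300 bases, of which 37.9% and 31.4% held as many or more. The other *Mid1* windows in the table had fewer, with 2 CG at chrX:169684949-169685248 and 6 CG at chrX:169827909-169828208. Of all windows, 85.9% and 56.4% held as many or more.

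Reads of the paralogs could be told apart by sequence. Of the 6904 distinct 50-base words in annotated *Mid1* transcripts, 0 occurred in *Mid2*. The Y-chromosome pseudogene *Mid1-ps1* (chrY:90753046-90765072) shared 1033 of these words, or 15.0% of those of *Mid1* and 86.2% of its own 1199. The 6904 words pool 15 annotated *Mid1* transcripts, and a single protein-coding one is 2546 to 3974 bases long. The shared part of a single transcript can therefore exceed 15.0% and was not computed. *Mid1-ps1* has no row in the table used here, so reads from the shared part could have been counted under *Mid1* or split between the genes, and its part in the *Mid1* values was not tested. Summed FPKM of 9 Y-chromosome genes was 96.6, 106.07 and 93.37 in OE-1, OE-2 and OE-D7, against 89.97, 93.17 and 97.91 in Con-1, Con-2 and Con-D7. These sums were higher in OE in pairs 1 and 2, and lower in the D7 pair. Of the 9 genes, 1 was lower in OE in every pair and 2 were higher. The lower one was *Eif2s3y*, the most abundant of the 9. It was at 46.32, 50.63 and 52.84 FPKM in OE-1, OE-2 and OE-D7, against 49.19, 51.07 and 54.31 FPKM in Con-1, Con-2 and Con-D7. *Mid1* was chosen for being lower in OE in all 3 pairs. With the replicate number as a block over 4 libraries, *Uba1y* and *Kdm5d* rose among 7 Y-chromosome genes tested (edgeR adjusted p = 0.0139 and 0.0018), where 0.763% of 13494 genes were called higher, and neither passed with DESeq2 (adjusted p = 0.387 and 0.0986). The fit with this block leaves 1 residual degree of freedom, and the main edgeR fit, without a block, called 0 of 13494 genes. The overexpressed *Dppa3* was thus not called in the main fit, so a missing call does not show an unchanged level.

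*Mid1* was an abundant transcript in both genotypes and was lower in OE ESCs in every pair. It was at 152.51, 181.73 and 204.09 FPKM in OE-1, OE-2 and OE-D7, against 245.23, 329.08 and 351.91 FPKM in Con-1, Con-2 and Con-D7. All OE libraries lay below all Con libraries, and the order of pairs, 1 lowest and D7 highest, was the same within each genotype. Means were 179 ± 25.9 FPKM in OE and 309 ± 56.2 FPKM in Con (SD, n = 3 each). In bulk RNA, fewer cells that express a gene and less RNA per cell cannot be told apart. By FPKM *Mid1* ranked 476th, 340th and 294th of all genes in OE-1, OE-2 and OE-D7, against 258th, 183rd and 160th in Con-1, Con-2 and Con-D7.

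**Figure D1:**
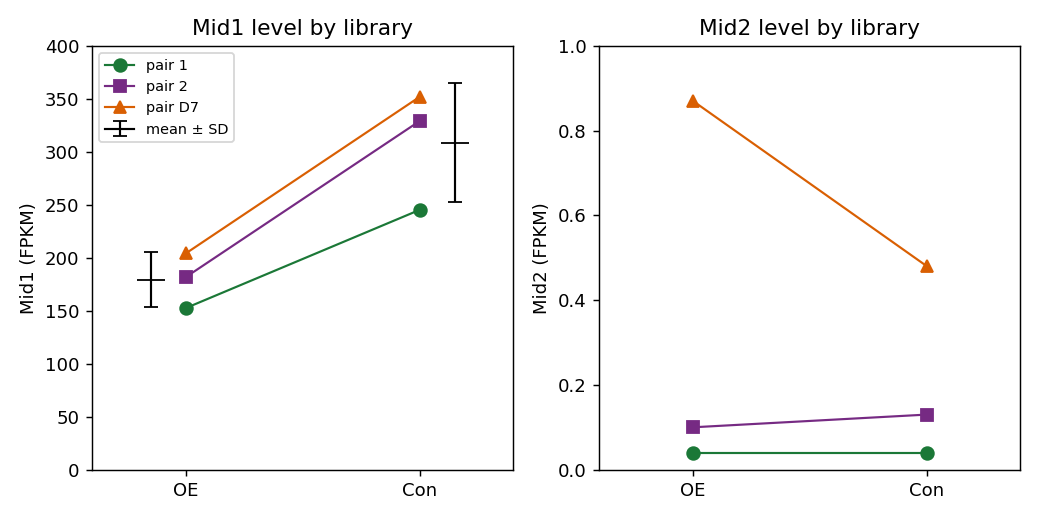
Levels of Mid1 (left) and Mid2 (right) in FPKM in OE and Con libraries, with a line joining the libraries of each pair and, for Mid1, the mean ± SD of 3 libraries in black. Mid1 is between 152.51 and 204.09 FPKM in OE and between 245.23 and 351.91 FPKM in Con, while Mid2 stays under 1 FPKM and is highest in the D7 pair.

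The FPKM ratio of OE to Con lay between 0.552 and 0.622 in the 3 pairs. *Mid1* in OE was at 62.2%, 55.2% and 58.0% of its Con level in pairs 1, 2 and D7. On the log2(FPKM + 0.5) scale the ratios were -0.68, -0.85 and -0.78, with a mean of -0.77 ± 0.09 (SD, n = 3 pairs). The differences rested on 8167.93, 9554.03 and 10768.7 estimated counts in OE-1, OE-2 and OE-D7, against 13261.6, 17443.8 and 18729.2 in Con-1, Con-2 and Con-D7. At this depth the exact 95% intervals of the ratio in depth-scaled counts were 0.605 to 0.640 in pair 1, 0.542 to 0.570 in pair 2 and 0.574 to 0.602 in the D7 pair. They cover counting error only and not the spread between libraries. The transcript length implied by the counts and FPKM of *Mid1* spanned 1.88% over the 6 libraries, against a median span of 0.932% over 7797 well-counted genes.

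Across the transcriptome, a lower value in every pair was found for 1362 of 13809 genes with a mean of at least 0.5 FPKM (9.86%), and separation of all OE from all Con libraries in that direction for 100 genes (0.724%). *Mid1* was among the first because it was chosen so, and was also among the second, which rests on the same contrast. Its ranks by size also rest on the contrast used for the choice. In size its mean log2 ratio was the lowest of the 751 genes with a mean of at least 100 FPKM and of the 1629 genes with at least 50 FPKM. It was the second lowest of 6750 genes with at least 10 FPKM and the tenth lowest of all 13809. The median log2 ratio was -0.04 over the 751 abundant genes and 0.04 over the 13809. After *Mid1*, the lowest ratios among the abundant genes were -0.41 for *Utf1*, a pluripotency-associated chromatin factor, and -0.40 for *Trh*, the thyrotropin-releasing hormone gene. Genes with a ratio lower than that of *Mid1* were all under 12 FPKM on average.

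**Figure D2:**
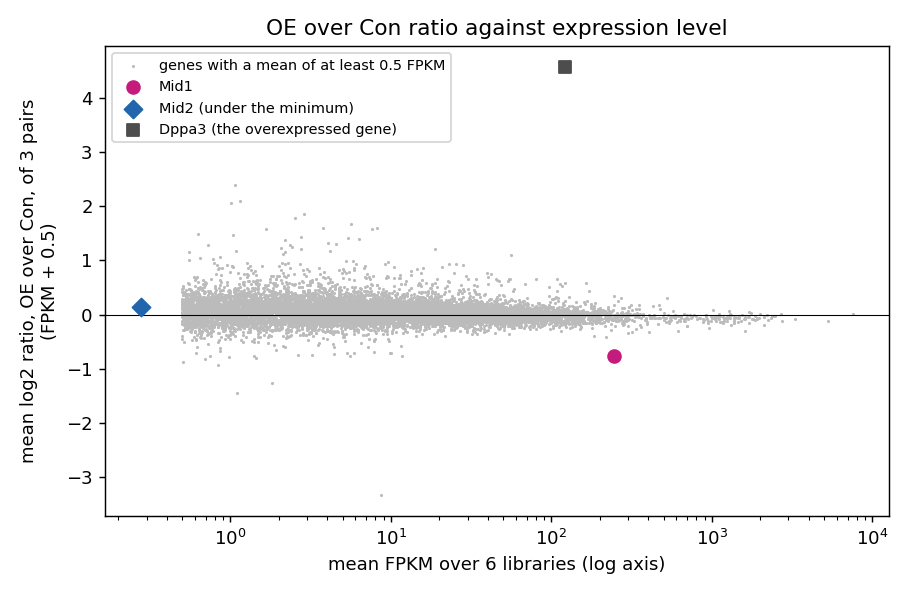
Mean log2 ratio of OE over Con of 3 pairs (FPKM + 0.5) against mean FPKM over 6 libraries on a log axis, with 1 grey point for each of 13809 genes. Mid1 sits at -0.77 and 244 FPKM, below every other gene with a mean of at least 50 FPKM. Mid2 lies at 0.14 near the left edge and Dppa3 at 4.57.

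X-linked genes as a group were not lower in OE. Of the 483 X-linked genes with a mean of at least 1 FPKM, 39 were lower in OE in every pair (8.07%), against 1214 of 12024 autosomal genes (10.1%). A higher value in OE in every pair was found for 165 of these 483 X-linked genes and for 2568 of the 12024 autosomal genes. The median of the mean log2 ratio was 0.09 on the X chromosome and 0.04 on autosomes. No other X-linked gene of the 483 had a lower ratio than *Mid1*, against 5 autosomal genes. Of the measured genes next to *Mid1*, *Hccs*, which encodes holocytochrome c synthase, was at 15.85, 14.24 and 15.91 FPKM in OE-1, OE-2 and OE-D7, against 15.13, 13.29 and 15.22 FPKM in Con-1, Con-2 and Con-D7. *Hccs* was thus slightly higher in OE in each pair, with a mean log2 ratio of 0.07. *Gm15246*, between *Hccs* and *Mid1*, had a mean log2 ratio of 0.26 and values of 2.46 to 8.15 FPKM over the 6 libraries. The enamel gene *Amelx* and the melatonin synthesis gene *Asmt*, the single measured gene on the far side of *Mid1*, were at or under 0.1 FPKM in all libraries.

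*Mid2* was close to the limit of detection in libraries 1 and 2. It was at 0.04, 0.10 and 0.87 FPKM in OE-1, OE-2 and OE-D7, against 0.04, 0.13 and 0.48 FPKM in Con-1, Con-2 and Con-D7. These levels rested on 5.04, 11 and 92.02 estimated counts in the OE libraries, against 4.93, 14.88 and 52.03 in the Con libraries. The genotypes overlapped, and within each of them the D7 library stood above libraries 1 and 2. The OE to Con ratio in depth-scaled counts was 1.03 (exact 95% interval 0.233 to 4.39) in pair 1, 0.75 (0.309 to 1.73) in pair 2 and 1.81 (1.27 to 2.59) in the D7 pair. Each ratio compares 1 library with 1 library, and the intervals cover counting error only. The mean log2 ratio of *Mid2* was 0.14 ± 0.30 (SD, n = 3 pairs), so its sign was not resolved at this depth. *Mid1* exceeded *Mid2* by 235-fold in OE-D7 to 6131-fold in Con-1 on the FPKM scale. The fold in Con-1 divides by 0.04 FPKM, from 4.93 estimated counts, and is imprecise. The log2 ratio of *Mid1* minus that of *Mid2* was -0.68, -0.78 and -1.27 in pairs 1, 2 and D7. With a mean of 0.277 FPKM, *Mid2* fell under the minimum of 0.5 FPKM used for the fits, so 1 of the 2 members passed it.

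Genes around *Mid2* did not share a direction. *Prps1*, for a phosphoribosyl pyrophosphate synthetase, had a mean log2 ratio of -0.03 and *Psmd10*, for a proteasome assembly factor, one of 0.12. *Tsc22d3*, the glucocorticoid-induced leucine zipper gene, had a mean of 0.15 and a lower OE value in pair 2. *Tex13b*, a germline gene next to *Mid2*, was at 1.16, 3.21 and 2.96 FPKM in OE-1, OE-2 and OE-D7, against 0.73, 1.43 and 1.54 FPKM in Con-1, Con-2 and Con-D7. *Tex13b* was higher in OE in each pair, as were 165 of the 483 X-linked genes with a mean of at least 1 FPKM. *Frmpd3* and *Vsig1* were at or under 0.14 FPKM in every library.

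The comparison of D7 libraries with libraries 1 and 2 did not enter the choice of the genes and was tested with genotype as a term. With 1 D7 library per genotype, both in the same pair, the D7 label cannot be told apart from the replicate number. The edgeR fit took the D7 libraries as independent of each other. It sets counts headed average read count against counts headed read count, and any effect of this was not tested. *Mid2* was higher in D7 libraries, by 12.4-fold in OE and 5.65-fold in Con over the mean of libraries 1 and 2 in FPKM. Fitted to all genes with at least 1 read, its log2 fold change was 2.94 (SE 0.51, edgeR adjusted p = 0.0216), where 5.95% of 19423 genes were called higher and 2.28% lower. *Mid1* was at 1.22 times the mean of libraries 1 and 2 in OE-D7 and 1.23 times in Con-D7. Its log2 fold change of 0.30 (SE 0.12) did not pass the threshold of 0.05 (edgeR adjusted p = 0.173), where 6.77% of 13809 genes were called higher and 3.06% lower. The D7 library had the highest *Mid1* level of its genotype, at 1.12 times library 2 in OE and 1.07 times in Con, while library 2 was at 1.19 times library 1 in OE and 1.34 times in Con. Libraries of the same number varied together, and with the pair as a random block *Mid2* no longer passed (limma adjusted p = 0.134), where 0.752% of 19423 genes passed as higher and 0.154% as lower. *Mid1* did not pass either (limma adjusted p = 0.517), where 0.521% of 13809 genes passed as higher and 0.116% as lower. The *Mid2* call was likewise lost without Con-D7, OE-1, OE-2 or OE-D7, with edgeR adjusted p of 0.165, 0.0549, 0.0733 and 0.513.

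The D7 libraries also differed from the others in markers of cell type. Summed FPKM of 7 trophectoderm markers was 1037.48 in OE-D7 and 600.27 in Con-D7, against 37.22 to 58.73 in libraries 1 and 2. The keratin genes *Krt8* and *Krt18* made up most of this sum, and *Cdx2*, a defining trophectoderm factor, was at 1.2 FPKM in OE-D7 and 1.49 FPKM in Con-D7. Summed FPKM of 10 fibroblast markers was 488.04 in OE-D7 and 310.29 in Con-D7, against 268.59 to 287.72 in libraries 1 and 2. *Fn1* and *Vim* made up most of this sum, and 6 of 8 tested markers had a log2 fold change above 0 for D7. *Thy1* was at 20.97 FPKM in OE-D7 and 22.95 FPKM in Con-D7, against 30.84 to 52.99 FPKM in libraries 1 and 2. *Vim* was at 113.84 FPKM in OE-D7 and 70.08 FPKM in Con-D7, against 92.27 to 129.23 FPKM. The collagen gene *Col1a1* was at 129.05 FPKM in OE-D7 and 37.98 FPKM in Con-D7, against 0.80 to 1.81 FPKM in libraries 1 and 2, while *Dcn* and *Lum* were at or under 0.21 FPKM in all. Summed FPKM of 10 ESC markers was 1383.06 in OE-D7 and 1542.91 in Con-D7, against 2155.33 to 2577.21 in libraries 1 and 2. Primitive endoderm markers (6 genes) summed to 14.57 FPKM in OE-D7 and 8.78 FPKM in Con-D7, against 2.36 to 4.36 FPKM in libraries 1 and 2. Primed and early lineage markers (7 genes) summed to 79.03 FPKM in OE-D7 and 125.47 FPKM in Con-D7, against 77.52 to 90.05 FPKM in libraries 1 and 2. *Dnmt3b* made up most of this sum, and 5 of 6 tested markers had a log2 fold change above 0 for D7. *Fgf5* was at 0.83 FPKM in OE-D7 and 3.1 FPKM in Con-D7, against 0 to 0.11 FPKM in libraries 1 and 2. *Mid2* had the order of the trophectoderm, fibroblast and primitive endoderm sums, OE-D7 highest and Con-D7 next, and the part of these markers in the *Mid2* difference was not tested.

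**Figure D3:**
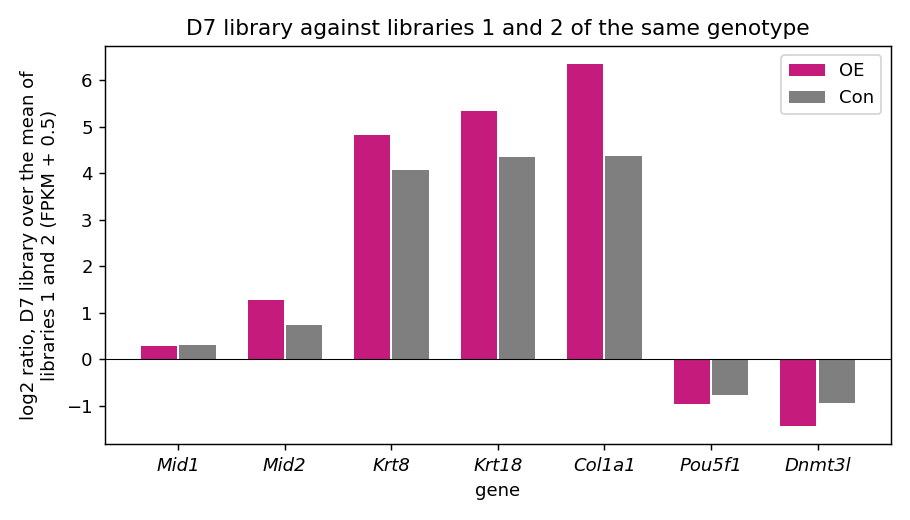
Log2 ratio of the D7 library over the mean of libraries 1 and 2 (FPKM + 0.5) in OE (magenta) and Con (grey) for Mid1, Mid2 and 5 marker genes, 1 library over 2 for each bar. Mid1 is at 0.29 in both genotypes and Mid2 at 1.27 in OE and 0.74 in Con, while Krt8, Krt18 and Col1a1 are above 4 and Pou5f1 and Dnmt3l are below 0.

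Among TRIM genes *Mid1* stood out by its level. Of 69 members in the table, *Trim28*, the corepressor of retroelements also known as Kap1, had the highest mean of 461 FPKM, *Mid1* followed with 244 FPKM and *Trim6* came next with 57.5 FPKM. In the fit of OE against Con over 4 libraries with the replicate number as a block, 0 of 46 other TRIM genes tested passed as higher and 1 as lower, where 0.763% and 0.126% of 13494 genes did. The lower one was *Trim24*, a chromatin reader, which was at 30.77, 24.99 and 32.11 FPKM in OE-1, OE-2 and OE-D7, against 41.19, 29.08 and 37.73 FPKM in Con-1, Con-2 and Con-D7. Its log2 fold change of -0.36 (SE 0.08, edgeR adjusted p = 0.0433) did not pass with DESeq2 in the same design (adjusted p = 0.541). Without the block 0 of 13494 genes were called by edgeR and 2 by DESeq2, and at an unadjusted p under 0.05 edgeR gave 58 higher and 4 lower genes. Against libraries 1 and 2, *Trim32* and *Trim75* rose in the D7 libraries (edgeR adjusted p = 0.0217 and 0.0482), 2 of 46 tested, where 6.77% of 13809 genes were called higher, and neither passed with the pair as a random block.

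The COS-box group, to which both genes belong, had no other member near the *Mid1* level. Of its 9 other members 6 were tested, and 0 passed in either direction for OE against Con with the block, where 0.763% of 13494 genes were called higher and 0.126% lower. *Fsd1*, the most abundant of them, was at 15.89, 14.16 and 13.58 FPKM in OE-1, OE-2 and OE-D7, against 16.79, 17.82 and 14.48 FPKM in Con-1, Con-2 and Con-D7. *Fsd1* and *Fsd1l* were the other members with a lower value in OE in every pair, with mean log2 ratios of -0.16 and -0.19. *Trim36* and *Trim54* were higher in OE in every pair, at 0.18 and 0.20. The group's 6 tested members had a median log2 fold change of -0.22, against 0.00 over all genes tested. The neuronal *Trim9* and *Trim67* and the muscle gene *Trim55* were under 0.6 FPKM in each library.

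**Figure D4:**
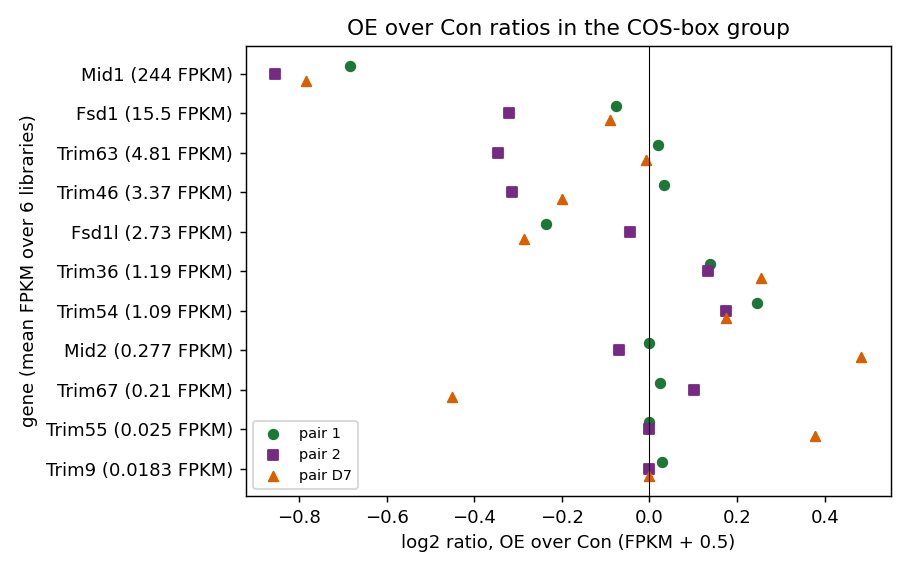
Log2 ratio of OE over Con (FPKM + 0.5) in pairs 1, 2 and D7 for the 11 genes of the COS-box group, ordered from top to bottom by mean FPKM over 6 libraries. Mid1 lies between -0.85 and -0.68 in its 3 pairs, left of all other points. Mid2 is at 0.00, -0.07 and 0.48 in pairs 1, 2 and D7. At its low level the added 0.5 FPKM holds the ratios of pairs 1 and 2 near 0.

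Genes for proteins that work with MID1 were measured in all 6 libraries. Of 11 partners tested, 0 passed in either direction for OE against Con with the block, where 0.763% of 13494 genes were called higher and 0.126% lower, and their median log2 fold change was -0.01. *Igbp1*, which encodes α4, was at 38.56, 34.03 and 37.49 FPKM in OE-1, OE-2 and OE-D7, against 38.38, 35.84 and 38.8 FPKM in Con-1, Con-2 and Con-D7. *Ppp2ca*, for the catalytic subunit of PP2A, was at 152.01, 120.53 and 126.35 FPKM in OE-1, OE-2 and OE-D7, against 155.84, 113.48 and 124.13 FPKM in Con-1, Con-2 and Con-D7. For both genes the genotypes overlapped. The translation factor gene *Eef1a1* and the scaffold gene *Rack1*, for proteins found with MID1 in microtubule-bound complexes, averaged 7561 and 1092 FPKM and had mean log2 ratios of 0.00 and -0.06. The 18 tested PP2A subunits, 12 PP2A regulators and 6 E2 enzymes of the Ube2d and Ube2e families gave 0 calls in either direction in the same fit. *Ube2d3*, the most abundant of these E2 enzymes, which hand ubiquitin to RING ligases, had a mean log2 ratio of 0.07.

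The mTOR and Hedgehog lists cover pathways linked to MID1. Of 18 tested mTOR complex genes and 11 tested Hedgehog genes, 0 passed in either direction for OE against Con with the block, where 0.763% of 13494 genes were called higher and 0.126% lower. *Mtor* was at 15.73, 18.88 and 13.67 FPKM in OE-1, OE-2 and OE-D7, against 14.92, 17.51 and 13.88 FPKM in Con-1, Con-2 and Con-D7. *Gli2*, the main transcriptional activator of Hedgehog signalling, was at 15.27, 9.72 and 3.87 FPKM in OE-1, OE-2 and OE-D7, against 17.73, 12.79 and 5.19 FPKM in Con-1, Con-2 and Con-D7. *Gli2* was lower in OE in each pair without passing (edgeR adjusted p = 0.0683 with the block). Of 15 microtubule genes, *Map4*, for a microtubule-associated protein, was the single call and fell in OE, with a log2 fold change of -0.33 (SE 0.07, edgeR adjusted p = 0.0307 with the block, DESeq2 adjusted p = 0.282), where 0.126% of 13494 genes were called lower. Against libraries 1 and 2, *Gli1* and *Gli2* fell and *Gli3* and *Gas1* rose in the D7 libraries, 4 of 12 Hedgehog genes tested, where 6.77% of 13809 genes were called higher and 3.06% lower, and none of the 4 passed with the pair as a random block. In the same comparison the PP2A subunit gene *Ppp2r5a* and the mTOR target gene *Eif4ebp1* fell, and the PP2A regulator gene *Tiprl* and the mTOR complex gene *Prr5l* rose, as did *Map4*, 1 of 15 microtubule genes, none of which passed with the random block. The 11 MID1 partners, 6 other COS-box genes and 6 E2 enzymes tested gave 0 calls for D7.

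The 5 annotated genes most like *Mid1* over the 6 libraries, by Pearson correlation of log2(FPKM + 0.5), were *Gfer*, *Spag7*, *Adh5*, *Luc7l2* and *Apoe*, with r of 0.982 to 0.965. They came from 12005 genes searched, of which 6 reached 0.95, and the points share libraries and genotypes. *Gfer*, which encodes a sulfhydryl oxidase, was at 26.24, 27.18 and 28.32 FPKM in OE-1, OE-2 and OE-D7, against 28.81, 29.93 and 30.22 FPKM in Con-1, Con-2 and Con-D7. It had the order of *Mid1* over the libraries with a far smaller difference between genotypes. *Apoe*, for apolipoprotein E, was at 277.19 to 287.16 FPKM in OE, against 330.75 to 373.61 FPKM in Con. For *Mid2* the 5 were *Dcaf5*, *Acbd3*, *Nuak1*, *Epn2* and *Serpinf1*, with r of 0.999, and 788 of 12006 genes reached 0.95. Each of these 5 was highest in OE-D7 and next in Con-D7, as *Mid2* was.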

How the data were processed

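Messenger RNA of 6 libraries of *Dppa3* OE and Con ESCs was sequenced on BGISEQ-500. The authors mapped reads to mm10 by Bowtie2, and RSEM gave the estimated counts that were deposited for each gene without scaling. For the D7 libraries these were headed average read count, without explanation, and the exact intervals and fits took them as counts. FPKM values, which the authors corrected for length and library size and rounded to 2 decimals, were deposited beside them. HISAT and GRCm38.p6 stand in the submitters' processing notes in place of these, and versions are not given in the sources used here. Of 19489 genes, 19340 matched RefSeq by gene ID.

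The members and gene lists were chosen with earlier results of these data known. Ratios used log2(FPKM + 0.5) within each pair. After rounding, counts were analysed in edgeR 4.0.16 (TMM, quasi-likelihood F test, R 4.3.3) on genes with a mean of at least 0.5 FPKM over the libraries of a fit, at a Benjamini-Hochberg adjusted p under 0.05. OE was compared with Con over libraries 1 and 2, and D7 libraries with the other 4 with genotype as a term. The main OE fit had no block and 2 residual degrees of freedom, and the replicate block left 1. *Mid2* was tested without the FPKM minimum. Alternatives were DESeq2 1.42.0, limma 3.58.1, RLE scaling, no minimum, other pseudocounts, CPM, each library left out, the replicate number as a block and, chosen after seeing the data, DESeq2 with that block and the pair as a random block. The fits were tested on simulated data.

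Deviations from the genotype mean were compared between OE and Con. Same-numbered libraries correlated at 0.859, 0.732 and 0.873 in pairs 1, 2 and D7 over 12565 genes, and at no more than -0.0173 between different numbers, so the numbers were taken to pair the libraries. Deviations from a mean of 3 libraries sum to 0.

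Named genes were the members, *Dppa3*, up to 4 genes a list (highest mean FPKM, calls, and largest change each way), the 5 most similar genes and up to 3 measured neighbours on each side. *Igbp1*, *Mtor*, *Utf1* and *Trh*, and the markers *Cdx2*, *Dcn*, *Lum*, *Fn1*, *Vim*, *Thy1*, *Dnmt3b* and *Fgf5*, were added after their values were seen. Intervals of count ratios are exact at 95% and cover counting error only.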

Additional observations from a re-analysis of the deposited data

How the results depend on the processing

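The *Mid1* mean log2 ratio of OE over Con ran from -0.82 to -0.73 over 7 alternatives (other pseudocounts, CPM with and without TMM, and each pair left out). *Mid1* was chosen for a lower OE value in every pair, so its kept sign follows from the choice and is no independent evidence. The *Mid2* ratio ran from -0.04 to 0.24 over the same alternatives, and *Mid1* minus *Mid2* from -1.03 to -0.73. The log2 fold change of *Mid1* in D7 libraries ran from 0.25 to 0.38 over 11 alternatives, none past the threshold, with adjusted p from 0.0714 to 0.734. For *Mid2* it was 1.01 in limma on log2(FPKM + 0.5), where the call was kept without a block (adjusted p = 0.0217) and lost at the same 1.01 with the pair as a random replicate block, and it was 2.34 to 3.51 with each library left out, where 4 of 6 lost it.

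Genes called for OE against Con numbered 0 without a block, 2 with DESeq2 (*Dppa3* and *Xlr3c*), 1 to 90 with each library left out (90 without Con-2), 120 with the replicate block over 4 libraries, 34 with DESeq2 and the replicate block, and 1 over 6 libraries with the replicate block. That 1 gene was *Mid1*, which was chosen on this contrast, so the call is no independent evidence. The overexpressed *Dppa3* was called neither in that fit nor in the main fit. Genes called for D7 numbered 1357, against 2494 with DESeq2, 88 with the pair as a random replicate block, and 0 to 2533 with each library left out (0 without OE-D7, 28 without Con-D7, 429 without OE-1, 365 without OE-2 and 2533 without Con-2). At 5 to 92 estimated counts, depth limits each statement on *Mid2*.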
